A study of Mus musculus with 24 samples.

Results

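The experiment compared mouse embryonic stem cells (mESCs) that lack Tip5 with wild-type (WT) cells of the same batch, batch B. Its members are 4 of the 24 RNA-seq libraries of the series, chosen by their labels: the 2 libraries of the Tip5 knock-out and the 2 WT libraries of that batch. All 4 come from untreated mESCs of 129S6/SvEvTac background, grown in serum with leukemia inhibitory factor on gelatin, and differ by label in genotype alone. The knock-out, named Tip5Δ here, was made with CRISPR–Cas9 and is a single picked clone. Its libraries are therefore repeats of 1 clone, and p-values measure the spread between libraries and not between clones. What the deletion does cannot be told apart from what sets this clone apart from the WT culture. The other libraries are 9 of WT cells from 4 other batches and 11 of 5 other lines (Rsf1Δ, WstfΔ, Acf1Δ, BptfΔ and 3 libraries labelled Cecr2Δ), used here for the error model and for comparison.

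TIP5, the product of Baz2a, is the large noncatalytic subunit of NoRC, a nucleolar remodeling complex in which it joins the ISWI ATPase SNF2H (Smarca5). NoRC is best known for silencing copies of the ribosomal RNA genes, through recruitment of histone and DNA modifying enzymes, and TIP5 has also been linked to heterochromatin at centromeres and telomeres. In mESC cultures with serum, most cells express the pluripotency network, while a minority turns towards other fates, among them primitive endoderm, the layer that lays down the basement membrane of the early embryo.

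The deletion left a Baz2a transcript. Baz2a (gene ID 116848), on chromosome 10 from 128091370 to 128129303 of mm10, was at 517 and 499 normalised CPM (counts scaled to the normalised library total) in the WT libraries and at 421 and 429 in the Tip5Δ libraries. Both Tip5Δ libraries lay below both WT libraries, a difference of -0.26 ± 0.091 (SE) on the log2 scale (quasi-likelihood test of edgeR, p adjusted after Benjamini and Hochberg = 0.0533). Counts per gene do not show which exons the reads cover, so the mRNA level by itself does not check the label. The paper reports that the deleted proteins were not detected on western blots and that clones were checked by DNA sequencing. The cell type did match its label. All 8 pluripotency markers (Pou5f1, Sox2, Nanog, Sall4, Utf1, Lin28a, Zfp42 and Esrrb) were at 100 CPM or more in each of the 4 libraries, and their sum was 3851 and 3869 CPM in WT and 3875 and 3969 CPM in Tip5Δ. Depth was similar, with 25.7 and 25.3 M counts in the WT and 22.9 and 24.3 M counts in the Tip5Δ libraries, so that 3 counts, taken as the floor, equal 0.128 CPM in Tip5Δ. Replicate libraries had a Pearson correlation of 0.998 across genes in both groups.

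Above 2 fold, the response ran mostly in 1 direction. A differentially expressed gene (DEG) had a fold change over 2 and an edgeR adjusted p under 0.01. Decreased DEGs made up 2.63% of the 15682 genes tested and increased DEGs 0.0829%, together 2.72%. The decreased DEGs had a median log2 fold change of -1.68, and 258 of the 413 were lowered 2 to 4 fold, 155 at least 4 fold and 48 at least 8 fold. By contrast, all 13 increased DEGs stayed within 4 fold, with log2 fold changes from 1.04 to 1.97. The one-sidedness came with the fold-change limit: below it, 564 genes were lower and 433 higher in Tip5Δ with an adjusted p under 0.01, and the median of all genes tested was -0.0050 on the log2 scale. Decreased DEGs were mostly of low level, with a median of 6.17 CPM in WT against 19.3 CPM for all genes tested. Still, 26 of them were at 100 CPM or more. In 412 of the 413 both Tip5Δ libraries were below both WT libraries (32.4% of all genes tested). As the calls rest on the same libraries, this adds no support to them. The exception, Dynlt1b, was named after its values were seen, with 0.460 and 10.5 CPM in WT and 0.438 and 0.790 CPM in Tip5Δ. The choice of model matters here. Without the batch term, which sets Tip5Δ against the 11 WT libraries of all batches, 144 decreased DEGs were called. These were partly other genes: of the 426 DEGs of both directions, 106 were also called in that model. A test against a 2-fold change left 158.

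**Figure D1:**
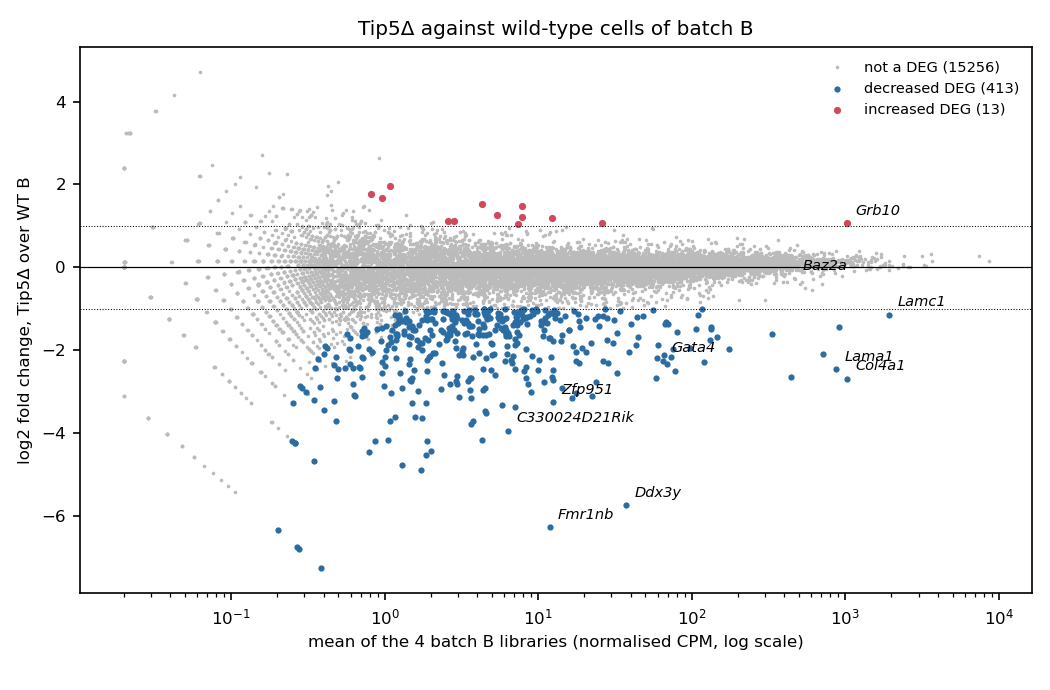
Log2 fold change of Tip5Δ over WT of batch B (vertical axis) against the mean of the 4 libraries in normalised CPM (horizontal axis, log scale), 1 point per gene tested. The 413 decreased DEGs (blue) reach far below the dotted 2-fold lines and include abundant genes such as Col4a1, whereas the 13 increased DEGs (red) stay close to the upper line.

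Genes of the primitive endoderm were lower together. Of 13 tested regulators of this lineage, 9 were decreased DEGs and 0 were increased (2.63% and 0.0829% of all genes tested), and the median log2 fold change was -2.10. Of 14 genes of the basement membrane that primitive endoderm makes, 9 were decreased and 0 increased, against the same shares (median -1.54). Summed over the list, the regulators were at 300.9 and 287.7 CPM in WT and at 82.4 and 74.0 CPM in Tip5Δ, that is at 26.6% of WT. The basement membrane genes summed to 12820.0 and 12520.0 CPM in WT and to 5107 and 5303 CPM in Tip5Δ, 41.1% of WT. In these bulk libraries, fewer cells of the lineage and less RNA per cell cannot be told apart.

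Among the regulators, Gata4 (gene ID 14463, chromosome 14 from 63198914 to 63271712), a zinc finger factor that drives the lineage, was at 109.6 and 106 CPM in WT and 23.9 and 21.3 CPM in Tip5Δ. This is a 4.78-fold decrease (-2.26 ± 0.12 SE on the log2 scale, edgeR adjusted p = 4.1e-14). Its partner Gata6, which acts earliest in the lineage, fell from 32.4 and 29.4 CPM to 6.17 and 6.32 CPM (4.94-fold, edgeR adjusted p = 2.01e-13). Both GATA factors were thus lower by a similar factor, with the 2 libraries of each group close together. Sox17, an HMG-box factor of all endoderm, had the largest decrease of the list, from 21.8 and 21.4 CPM to 3.41 and 3.12 CPM (6.60-fold, edgeR adjusted p = 1.6e-13). The receptor Pdgfra, a surface marker of primitive endoderm, fell from 49.5 and 44.9 CPM to 10.7 and 8.28 CPM (4.98-fold, edgeR adjusted p = 9.27e-15). Sox7, Foxa2, Hnf4a and Foxq1 were decreased as well, lowered between 3.14 and 6.11 fold, Foxq1 the least and Hnf4a the most. Prdm1 and Eomes, and likewise Fn1 and Nid1 in the next list, were named after their values were seen, as members that did not pass the test. Prdm1 was at 16.02 and 14.2 CPM in WT and 15.7 and 14.1 CPM in Tip5Δ, and the adjusted p was 0.942 for Prdm1 and 0.708 for Eomes (edgeR).

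The structural genes carried most of the RNA. Col4a1 (gene ID 12826, chromosome 8 from 11198423 to 11312889), one of the paired chains of type IV collagen, was at 1740.2 and 1800.5 CPM in WT and at 263 and 287 CPM in Tip5Δ (6.44-fold lower, -2.69 ± 0.10 SE on the log2 scale, edgeR adjusted p = 3.88e-17). Its partner chain Col4a2 fell from 748 and 791 CPM to 119 and 126 CPM (6.28-fold, edgeR adjusted p = 2.13e-17). The decrease of both collagens was nearly the same, although their levels differ, and both genes start from 1 short stretch of chromosome 8. Laminin 111, the other network of this membrane, consists of the products of Lama1, Lamb1 and Lamc1. Lama1 went from 1520.2 and 1422 CPM to 258 and 276 CPM (5.51-fold lower) and Lamb1 from 1189 and 1142 CPM to 265 and 277 CPM (4.30-fold lower). Lamc1, the chain used by most laminins, went from 2710.4 and 2583 CPM to 1187 and 1207 CPM and was lowered only 2.21 fold. Sparc, a secreted glycoprotein that binds collagen, fell from 1348 and 1301 CPM to 488 and 479 CPM. P4ha2, Plod2 and Serpinh1, which modify and fold collagen, were decreased as well, 4.32, 3.24 and 3.07 fold. Fibronectin (Fn1), at 1204 and 1142 CPM in WT and 1072 and 1131 CPM in Tip5Δ (edgeR adjusted p = 0.712), and Nid1 (adjusted p = 0.708) did not pass the test.

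Because Col4a1 and Col4a2 lie head to head and moved alike, their promoter windows are shown (RefSeq, GRCm38.p6, 250 bases before to 50 bases after the start of 1 annotated transcript (the first listed), which can lie inside the gene's outer limits, each read 5′ to 3′ on its own strand). Capitals mark the 78 bases, 11312777 to 11312854 of chromosome 8, that both windows hold on opposite strands. The windows contain 37 and 33 CpG dinucleotides, against a median of 20 over the 12223 RefSeq promoters of genes tested. The genes overlap at their starts. The labels name a stranded kit and the study's methods an unstranded one, and whether counting used strand is not stated, so reads from the shared stretch are uncertain.
Col4a1, chr8:11312777-11313076, minus strand: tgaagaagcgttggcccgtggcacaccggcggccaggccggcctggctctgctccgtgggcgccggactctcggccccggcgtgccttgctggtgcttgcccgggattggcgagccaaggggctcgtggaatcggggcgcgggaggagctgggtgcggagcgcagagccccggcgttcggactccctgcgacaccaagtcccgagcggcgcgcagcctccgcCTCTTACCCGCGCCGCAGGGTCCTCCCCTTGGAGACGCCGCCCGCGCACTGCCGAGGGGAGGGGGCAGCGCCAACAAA
Col4a2, chr8:11312555-11312854, plus strand: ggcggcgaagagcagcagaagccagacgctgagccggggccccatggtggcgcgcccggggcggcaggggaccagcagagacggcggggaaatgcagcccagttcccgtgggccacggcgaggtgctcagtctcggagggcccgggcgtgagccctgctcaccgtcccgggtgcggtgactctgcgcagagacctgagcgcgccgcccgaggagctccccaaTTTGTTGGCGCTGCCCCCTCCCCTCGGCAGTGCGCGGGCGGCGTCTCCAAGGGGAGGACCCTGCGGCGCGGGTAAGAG

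Visceral endoderm, which takes up and secretes nutrients and derives from primitive endoderm, gave a mixed list. Of 21 tested genes 9 were decreased DEGs and 1, F5, was increased, where all genes tested gave 2.63% and 0.0829% (median log2 fold change -0.91). Cubn, the cubilin receptor for protein uptake, was at 104 and 91.02 CPM in WT and at 21.6 and 20.8 CPM in Tip5Δ, and its binding partner Amn was at 9.16 and 8.82 CPM and 1.05 and 1.87 CPM. Dab2, the endocytic adaptor of the same receptor, fell from 98.5 and 91.1 CPM to 26.05 and 25.4 CPM (3.68-fold, edgeR adjusted p = 2.11e-15). The 3 partners of 1 uptake route were thus each decreased DEGs. Thbd and Tfpi, which restrain blood clotting at cell surfaces, were lowered 10.1 and 4.90 fold, Tfpi from 204 and 194 CPM to 41.2 and 39.98 CPM. The proteoglycan core gene Srgn fell from 107 and 96.2 CPM to 16.3 and 15.4 CPM. In the opposite direction, F5, which encodes clotting factor V, rose from 3.30 and 2.99 CPM to 7.84 and 7.36 CPM (2.41-fold, edgeR adjusted p = 1.18e-06). The apolipoprotein gene Apoe was at 526 and 532 CPM and 512 and 533 CPM (edgeR adjusted p = 0.913).

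**Figure D2:**
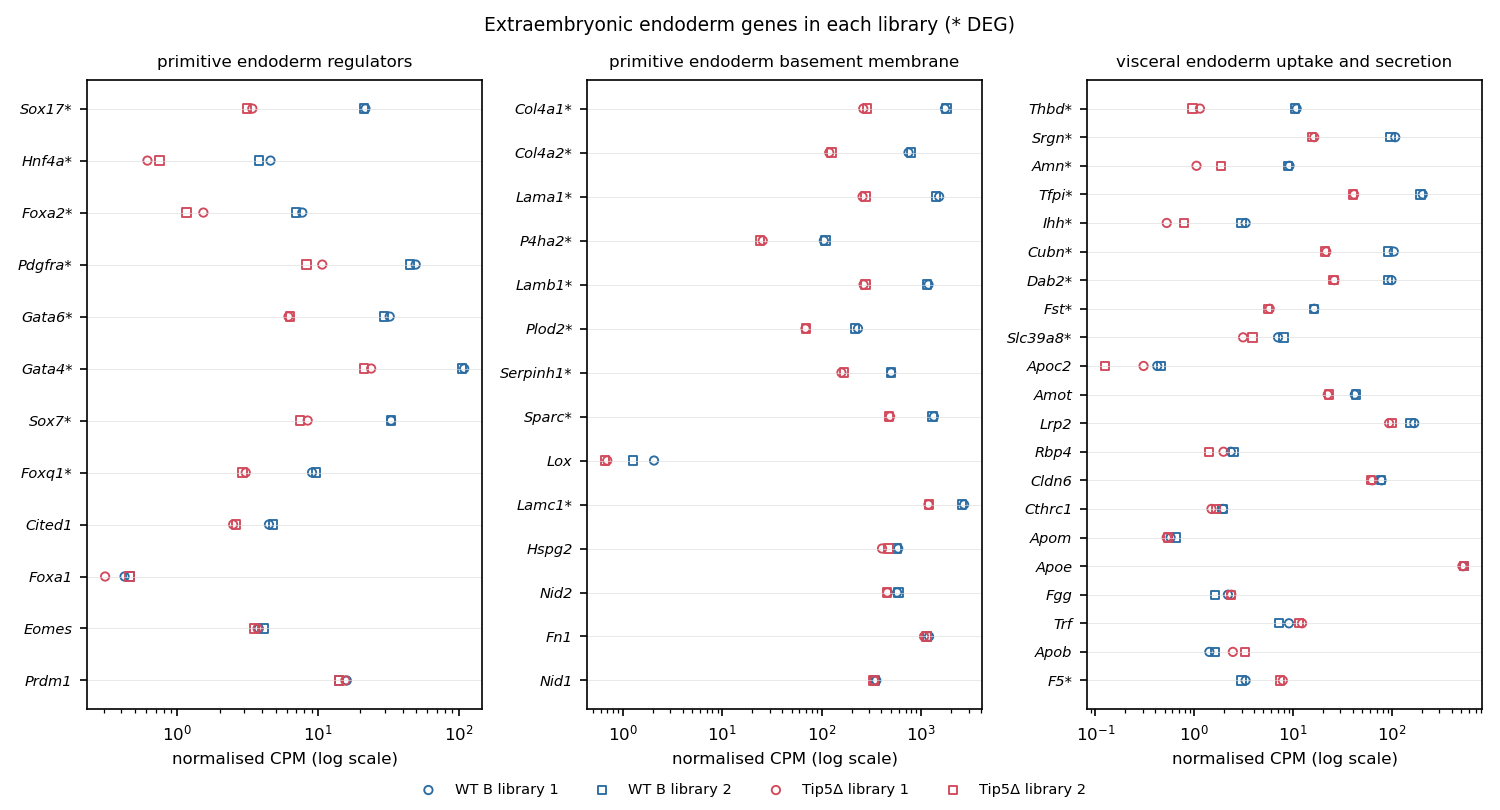
Normalised CPM (horizontal axis, log scale) of tested genes of 3 endoderm lists in the 2 WT libraries of batch B (blue) and the 2 Tip5Δ libraries (red); circles are library 1, squares library 2, and an asterisk marks a DEG. Gata4, Col4a1, Lama1 and Cubn are shifted left in both Tip5Δ libraries, while for Prdm1 and Apoe the groups overlap.

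How far these decreases stand out depends on the WT libraries. Batch B WT cells had high endoderm RNA: over the 9 WT libraries of the other batches, the regulators summed to between 100.4 and 283.6 CPM and the basement membrane genes to between 4997 and 12940.0 CPM. For the regulators, 0 of those 9 libraries fell below both Tip5Δ libraries, and for the basement membrane genes 1 did. Among the 9 decreased members of each list, both Tip5Δ libraries lay below all 11 WT libraries for 7 regulators and 6 basement membrane genes. The same held for 249 of all 413 decreased DEGs and for 7.52% of all genes tested, so these counts do not set the lists apart from other decreased DEGs. Without the batch term, 2 of the regulators (Foxa2 and Hnf4a), 0 of the basement membrane genes and 1 of the visceral genes (Tfpi) remained DEGs. In that model, Gata4 had a log2 fold change of -1.49 (edgeR adjusted p = 0.0812) and Col4a1 one of -2.02 (edgeR adjusted p = 0.0316). Leaving out any 1 of the 4 libraries kept 9 calls in the first and in the second list. Markers of other cell types were counted beside them. Of 16 tested fibroblast and feeder genes, 4 were decreased (Col1a1, Col1a2, Col3a1 and Acta2; 2.63% of all genes tested) and 0 increased. Both Tip5Δ libraries were below both WT libraries for 7 of the 16 (32.4% of all genes) and above them for 6 (30.9% of all genes), Thy1 among these (10.2 and 10.2 CPM in WT and 11.8 and 13.4 CPM in Tip5Δ, edgeR adjusted p = 0.0252). The list summed to 227.7 and 224.8 CPM in WT against 181.5 and 194.1 CPM in Tip5Δ (84.9 to 237.0 CPM in the other WT libraries). Of 8 defining markers Dcn, Lum and Postn were under 1 CPM in each library. The part of these cells in the endoderm result was not tested.

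**Figure D3:**
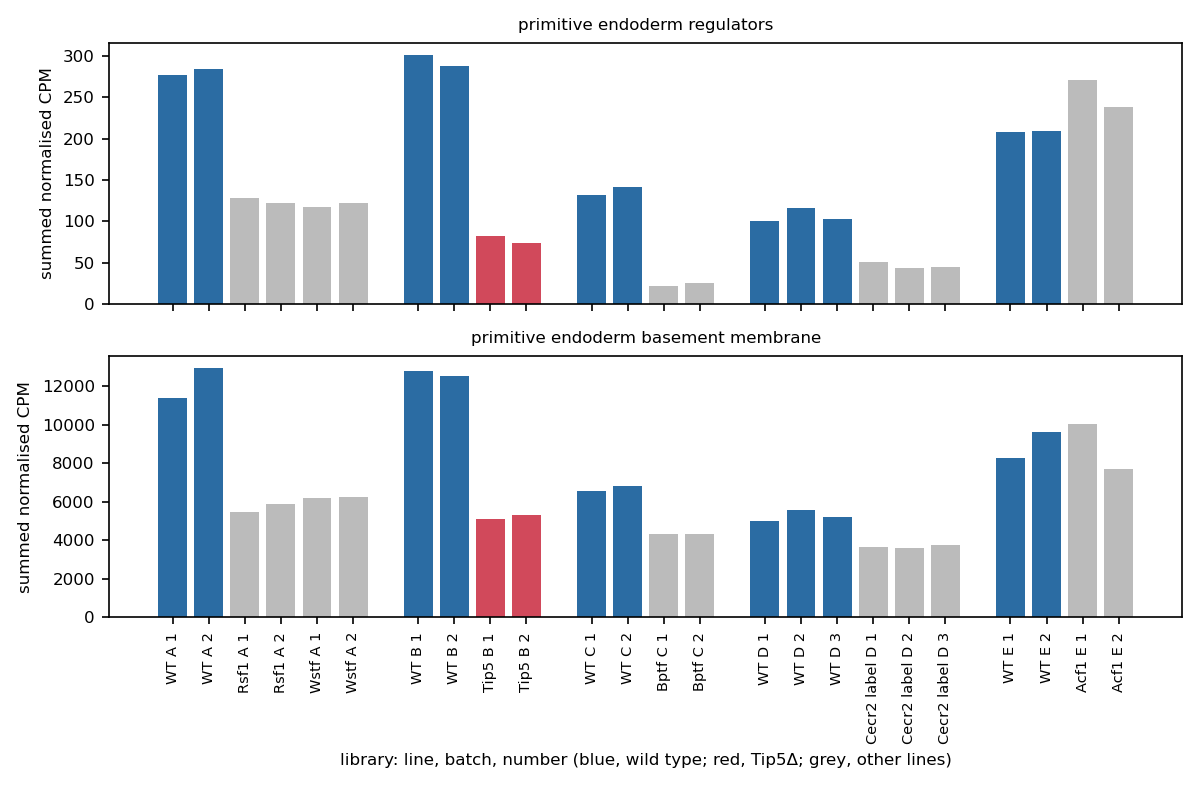
Summed normalised CPM of the primitive endoderm regulators (upper panel) and basement membrane genes (lower panel) in each of the 24 libraries, ordered by batch; blue bars are WT, red bars Tip5Δ and grey bars other lines. The WT libraries of batches A and B are highest (283.6 and 300.9 CPM at most for the regulators), and both Tip5Δ bars of the upper panel (82.4 and 74.0 CPM) are below every WT bar.

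Other lineages and signalling genes gave smaller counts. Of 16 genes of primitive streak and mesoderm, 3 were decreased (2.63% of all genes tested, also for the counts of decreased genes that follow), namely Snai1, Kdr and Tbx20, but 1 or 2 remained when 1 library was left out: Kdr was lost without WT library 1 and without Tip5Δ library 1, and Tbx20 whichever of the 4 was left out. Without the batch term Tbx20 was the 1 DEG of the list. Snai1, a repressor of epithelial genes, fell from 8.66 and 8.09 CPM to 2.89 and 3.12 CPM (2.78-fold, edgeR adjusted p = 5.59e-08). In the trophectoderm list 0 of 16 genes were DEGs, while with an adjusted p under 0.01 5 were lower (6.23% of all genes tested) and 1 was higher (2.84% of all genes). Among the lower ones were the keratin genes Krt8 (149 and 142 CPM in WT, 77.3 and 86.3 CPM in Tip5Δ) and Krt18. The neuroectoderm list had 0 DEGs among 8, but 1 gene was lower and 2 were higher with an adjusted p under 0.01. Tubb3, a neuronal tubulin gene, was lower at 42.3 and 47.9 CPM in WT and 33.5 and 32.4 CPM in Tip5Δ (edgeR adjusted p = 0.00142). Nes, an intermediate filament gene of neural progenitors, was higher by less than 2 fold at 38.7 and 39.01 CPM in WT and 72.4 and 74.4 CPM in Tip5Δ (edgeR adjusted p = 1.06e-08). Among 18 targets of Nodal and BMP signalling, 4 were decreased, among them Bmp2, Msx2 and Fst. With an adjusted p under 0.01, 6 were lower (6.23% of all genes) and 3 were higher (2.84% of all genes), these 3 by less than 2 fold. The list summed to 530.2 and 530.9 CPM in WT and 592.4 and 607.2 CPM in Tip5Δ. Bmp2 went from 6.21 and 5.87 CPM to 1.14 and 0.666 CPM (6.70-fold, edgeR adjusted p = 3.92e-09). Among 16 genes of the YAP and SRF response and contractile fibres, Ccn1, Ccn2, Ankrd1 and Acta2 were decreased. Ccn2, a secreted matrix regulator, went from 160.4 and 155 CPM to 56.6 and 56.3 CPM (2.79-fold, edgeR adjusted p = 1.37e-15). The call of Ccn1 was lost without Tip5Δ library 1 (log2 fold change -0.97). Of 11 tested genes of the two-cell-like state, a rare state of mESC cultures, 1 was decreased (median log2 fold change -1.72), and in 9 both Tip5Δ libraries were below both WT libraries (32.4% of all genes tested). Its 5 markers summed to 1.69 and 2.07 CPM in WT and 0.307 and 0.166 CPM in Tip5Δ, with 4 of them under 1 CPM in each library, while the list itself, of which Eif1a made up most, summed to 302.7 and 284.1 CPM in WT and 316.4 and 320.7 CPM in Tip5Δ. The 1 call, Zscan4d, had 1.03 and 1.15 CPM in WT and 0.175 and 0.125 CPM in Tip5Δ, and was lost without WT library 2, without either Tip5Δ library and without the batch term. Without the batch term 0 of the Nodal, BMP, YAP and SRF genes and 0 of the fibroblast genes were DEGs.

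A different set of decreases concerned genes normally used in germ cells, many of them on chromosome X. Of the 552 tested genes of chromosome X, 30 (5.43%) were decreased DEGs, whereas the share over single autosomes ranged from 1.20% to 3.96%. Fmr1nb (gene ID 207854, chromosome X from 68761839 to 68804561), a testis gene next to Fmr1, was 77.4-fold lower, at 26.7 and 20.3 CPM in WT and 0.394 and 0.208 CPM in Tip5Δ. Of 15 tested X-linked cancer-testis genes, a class silent in most adult tissues outside the testis, 7 were decreased and 0 increased, beside 2.63% decreased among all genes and 5.43% on chromosome X (median log2 fold change -0.89). Usp26, a testis deubiquitinase, fell from 2.22 and 2.34 CPM to 0.219 and 0.374 CPM (7.53-fold, edgeR adjusted p = 2.54e-06). Mageb4 fell from 2.34 and 2.45 CPM to 0.569 and 0.374 CPM (5.06-fold, edgeR adjusted p = 4.63e-06). Xlr3a had 18 and 22 counts in WT and 0 in both Tip5Δ libraries, so it was at least 5.99-fold lower against the floor of 3 counts per library. Tktl1, Nxf2 and Nxf3 had low counts. The calls of Tktl1 and Nxf2 were lost whichever library was left out, those of Xlr3a without either Tip5Δ library and that of Nxf3 without Tip5Δ library 2, so that 3 to 5 calls remained.

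The Rhox genes, a cluster of homeobox genes on chromosome X used in testis, ovary and placenta, were mostly too low to test. Of 26 listed genes 6 were tested, 4 were decreased (Rhox5, Rhox6, Rhox10 and Rhox13), 5 were lower with an adjusted p under 0.01, and in all 6 both Tip5Δ libraries were below both WT libraries (32.4% of all genes tested). Rhox5, the most abundant, was at 122 and 115 CPM in WT and 38.05 and 42.97 CPM in Tip5Δ (2.93-fold lower, -1.55 ± 0.097 SE on the log2 scale, edgeR adjusted p = 1.82e-12). Rhox13 fell from 6.28 and 6.94 CPM to 1.58 and 1.58 CPM (4.18-fold). Rhox10 was lost without WT library 1 and without Tip5Δ library 1 (log2 fold change -2.31 and -1.99). The 4 Rhox calls held without the batch term. Of 27 germline genes that DNA methylation silences, 4 were decreased (2.63% of all genes tested), namely Tex19.1, Smc1b, Rpl10l and Tuba3a, all on autosomes. With an adjusted p under 0.01, 10 of the 27 were lower (6.23% of all genes) and 1 was higher (2.84% of all genes). Tex19.1, a protector of the germline against transposons, fell from 62.2 and 60.1 CPM to 26.05 and 26.8 CPM (2.31-fold, edgeR adjusted p = 7.86e-12), and Rpl10l, a testis copy of a ribosomal protein gene, from 35.6 and 37.8 CPM to 16.2 and 16.1 CPM. Key germ cell genes such as Dazl and Ddx4 were not DEGs. By less than 2 fold, Dazl was lower (log2 fold change -0.42, edgeR adjusted p = 0.00854) and Ddx4 was higher (0.27, edgeR adjusted p = 0.005). The 4 germ cell markers Dazl, Ddx4, Mael and Sycp3 summed to 116 and 114 CPM in WT and 121 and 123 CPM in Tip5Δ. The 4 autosomal calls held when any 1 library was left out, and that of Smc1b was lost without the batch term (log2 fold change -0.86, edgeR adjusted p = 0.0204).

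Of the 4 tested genes of chromosome Y, 2 were decreased DEGs (2.63% of all genes tested). Ddx3y, a Y-linked RNA helicase, was at 72.6 and 73.99 CPM in WT and 1.62 and 1.12 CPM in Tip5Δ (53.5-fold lower, -5.74 ± 0.16 SE on the log2 scale, edgeR adjusted p = 1.84e-19). Its neighbour Uty, a Y-linked histone demethylase gene, fell from 31.8 and 34.5 CPM to 13.4 and 14.6 CPM (2.37-fold, edgeR adjusted p = 2.03e-09). Eif2s3y, a translation factor gene and the neighbour of Uty on the other side, was at 67.7 and 62.9 CPM in WT and 77.6 and 80.6 CPM in Tip5Δ (edgeR adjusted p = 0.0283). The fourth, Uba1y, was at 1.65 and 1.38 CPM in WT and 0.700 and 0.458 CPM in Tip5Δ (edgeR adjusted p = 0.0379). It was named after its values were seen. Thus 3 of the 4, of which Uba1y did not pass the test, had lower values in both Tip5Δ libraries (32.4% of all genes tested), and Eif2s3y had higher ones. Eif2s3y, Uty and Ddx3y lie in a row on chromosome Y from 1010562 to 1049134 (Eif2s3y), from 1085187 to 1245773 (Uty) and from 1260715 to 1286628 (Ddx3y).

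Further decreased DEGs lay outside these lists. Zfp951 (gene ID 626391, chromosome 5 from 104802246 to 104860157), a zinc finger gene, was at 24.4 and 20.6 CPM in WT and 2.23 and 2.45 CPM in Tip5Δ (9.57-fold lower, log2 fold change -3.26, edgeR adjusted p = 4.94e-16). The noncoding transcript C330024D21Rik (chromosome 5 from 67463898 to 67477899) fell from 12.4 and 11.5 CPM to 0.788 and 0.749 CPM (15.5-fold, edgeR adjusted p = 2.11e-15). Gm32885 had 85 and 89 counts in WT and 3 and 2 in Tip5Δ, and was at least 26.0-fold lower against the floor. Of 283 solute carriers 10 were decreased, beside 2.63% of all genes tested, and 1 was increased; without the batch term the list held 5 DEGs, Slc34a2 and Slc4a5 included. The largest decreases were Slc34a2, a phosphate transporter, from 8.89 and 7.86 CPM to 0.919 and 0.541 CPM, and Slc4a5, a bicarbonate transporter, from 15.6 and 16.4 CPM to 2.10 and 1.87 CPM. Lncenc1, a noncoding RNA abundant in naive mESCs, fell from 203 and 202 CPM to 60.4 and 59.7 CPM (3.37-fold, edgeR adjusted p = 2.13e-17). Clu, a secreted chaperone, was lowered 3.90 fold from 280.5 ± 11.4 CPM to 71.9 ± 0.841 CPM (SD, n = 2), a call lost without the batch term (edgeR adjusted p = 0.0269).

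Promoter windows of Fmr1nb, Zfp951 and C330024D21Rik are shown because these are the 3 largest decreases among genes whose fold change differed from that of every other line (RefSeq, GRCm38.p6). Capitals mark CpG dinucleotides, the sites of DNA methylation. They hold 9, 8 and 7 CpGs, and between 16.7% and 21.4% of the 12223 promoters of tested genes have as few or fewer. No methylation was measured in these data. Of the 413 decreased DEGs, 314 (76.0%) had a promoter in the table, under the 80% needed, so the check of CpG content and motifs over the whole set is void.
Fmr1nb, chrX:68761589-68761888, plus strand: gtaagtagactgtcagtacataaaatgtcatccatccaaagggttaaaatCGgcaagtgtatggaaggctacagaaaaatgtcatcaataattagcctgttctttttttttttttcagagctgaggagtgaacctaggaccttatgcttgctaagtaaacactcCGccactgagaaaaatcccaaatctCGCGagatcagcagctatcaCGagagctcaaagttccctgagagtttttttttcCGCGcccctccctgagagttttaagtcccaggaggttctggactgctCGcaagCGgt
Zfp951, chr5:104859978-104860277, minus strand: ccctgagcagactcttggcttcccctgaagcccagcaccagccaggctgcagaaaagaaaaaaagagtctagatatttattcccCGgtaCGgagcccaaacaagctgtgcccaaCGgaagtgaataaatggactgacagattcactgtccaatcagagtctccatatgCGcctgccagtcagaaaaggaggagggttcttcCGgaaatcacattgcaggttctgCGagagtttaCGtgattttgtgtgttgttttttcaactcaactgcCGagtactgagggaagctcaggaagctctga
C330024D21Rik, chr5:67463648-67463947, plus strand: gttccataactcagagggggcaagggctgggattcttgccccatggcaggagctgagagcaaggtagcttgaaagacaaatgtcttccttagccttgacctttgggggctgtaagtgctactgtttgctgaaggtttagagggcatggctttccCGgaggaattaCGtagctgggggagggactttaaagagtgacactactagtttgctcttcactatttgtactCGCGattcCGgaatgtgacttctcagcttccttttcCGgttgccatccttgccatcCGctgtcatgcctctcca

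The increased DEGs were 13 genes with no list of their own (0.0829% of genes tested, as given above), and 10 of them were under 5 CPM in WT. Grb10, an imprinted growth inhibitor that acts on insulin signalling, was the only abundant one. It rose from 670.3 and 653 CPM to 1392 and 1388 CPM (2.10-fold, 1.07 ± 0.061 SE on the log2 scale, edgeR adjusted p = 2.51e-13), above the highest of the 9 other WT libraries at 747 CPM. It was the only DEG among 18 maternally expressed imprinted genes (2.72% of all genes tested were DEGs). Of 27 paternally expressed ones only Sfmbt2 was a DEG, lowered 2.54 fold, a call lost without the batch term (edgeR adjusted p = 0.0337). With an adjusted p under 0.01, 4 maternally and 5 paternally expressed genes were higher (2.84% of all genes), and 0 and 2 were lower (6.23% of all genes). Fgf15, a growth factor of the early embryo, went from 16.6 and 17.1 CPM to 35.3 and 35.3 CPM (2.09-fold). Stra8, the meiosis gene induced by retinoic acid, went from 6.78 and 8.25 CPM to 16.5 and 17.8 CPM (2.28-fold), which lies within the other WT libraries (4.67 to 19.8 CPM). Gna14, a G protein subunit, rose from 5.02 and 4.41 CPM to 10.7 and 11.4 CPM (2.34-fold, edgeR adjusted p = 3.15e-06). The scavenger receptor gene Colec12 went from 5.52 and 4.10 CPM to 9.33 and 10.5 CPM and was no longer past 2 fold without WT library 2 (log2 fold change 0.84) or without Tip5Δ library 2 (0.95). Sned1, Trim67, Thbs4, R3hdml, Shisa6 and Dleu7 also belonged to the set. Shisa6 and Thbs4 lost their calls whichever of the 4 libraries was left out, R3hdml without any but WT library 1, Trim67 without WT library 1 or Tip5Δ library 2, and Dleu7 without WT library 2 or Tip5Δ library 1. In all 13 both Tip5Δ libraries were above both WT libraries (30.9% of all genes tested), which adds no support, as the calls rest on the same libraries. In 6 they were above all 11 WT libraries, for which the share of all genes tested was not computed. Without Tip5Δ library 2, 8 increased DEGs remained. Without the batch term, Sned1 turned to a log2 fold change of -0.24 (edgeR adjusted p = 0.829); its other WT libraries ranged from 3.55 to 17.2 CPM, against 2.45 and 1.99 CPM in WT of batch B. In that model Grb10 and Gna14 were still DEGs, whereas F5 (log2 fold change 0.76, edgeR adjusted p = 0.065), Fgf15 (0.72), Stra8 (0.61), Colec12 (0.53), Trim67, Thbs4, R3hdml, Shisa6 and Dleu7 were not.

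Genes tied to the known functions of NoRC were counted in 3 lists. Of 16 partners and recruiters of NoRC, 13 subunits of ISWI complexes and 27 genes of RNA polymerase I and the nucleolus, 0 were DEGs, beside 2.72% of all genes tested, and the median log2 fold changes were 0.11, 0.08 and 0.11. Both Tip5Δ libraries were above both WT libraries for 11 of the 16 partners and 20 of the 27 RNA polymerase I and nucleolar genes, against 30.9% of all genes. Summed levels were at 107.2% and 115.4% of WT for these lists. Smarca5 was at 290.2 and 276 CPM in WT and 312 and 312 CPM in Tip5Δ (edgeR adjusted p = 0.218). Without the fold-change limit, 2 partners and 1 RNA polymerase I gene were higher (2.84% of all genes) and 1 ISWI gene was lower (6.23% of all genes), each with an adjusted p under 0.01. There were also 0 DEGs among genes of H3K9 methylation and HP1 (18 genes), Polycomb (33), the centromere and kinetochore (24), DNA methylation (14) and CTCF and cohesin (12). Of the H3K9 and HP1 genes 13, of the centromere and kinetochore genes 15 and of the CTCF and cohesin genes 8 were above both WT libraries (30.9% of all genes), and 2 in each of these lists were higher with an adjusted p under 0.01. At that p, 2 Polycomb genes were lower and 1 was higher, and 1 DNA methylation gene was lower. Ribosomal RNA itself was not analysed here.

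The pluripotency lists held 1 DEG. Of 9 core genes 0 were DEGs, but 3 were higher by less than 2 fold with an adjusted p under 0.01 (2.84% of all genes tested), and 6 were above both WT libraries (30.9% of all genes). Tdgf1, a coreceptor of Nodal, was at 455 and 453 CPM in WT and 595 and 598 CPM in Tip5Δ (1.31-fold, edgeR adjusted p = 8.15e-06), and Lin28a, an RNA-binding protein gene, at 435 and 424 CPM and 513 and 508 CPM (1.19-fold, edgeR adjusted p = 0.00237). For Pou5f1, at 1149 and 1198 CPM in WT and 1179 and 1266 CPM in Tip5Δ, and Nanog, at 435 and 407 CPM and 428 and 421 CPM, the groups overlapped. Of 17 naive genes 1 was a DEG (2.72% of all genes tested). This was Dppa3, which protects maternal methylation imprints, at 5.02 and 5.72 CPM in WT and 1.88 and 2.995 CPM in Tip5Δ (edgeR adjusted p = 0.000443). That call was lost without WT library 2 and without Tip5Δ library 1, where the log2 fold change was -1.03 and -0.84, and without the batch term (-0.83). Of 12 formative and primed genes 0 had an adjusted p under 0.01. The amino acid stress response of ATF4 had 0 DEGs among 18 genes, but 9 were higher and 0 lower with an adjusted p under 0.01, where the background is 2.84% higher and 6.23% lower. Ddit3, picked with its values in view, is a factor of that response and stood at 39.2 and 37.3 CPM in WT and 50.7 and 56.7 CPM in Tip5Δ (edgeR adjusted p = 0.000585). Cholesterol synthesis (22 genes) and the clustered protocadherins (41 genes) had 0 genes with such a p.

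**Figure D4:**
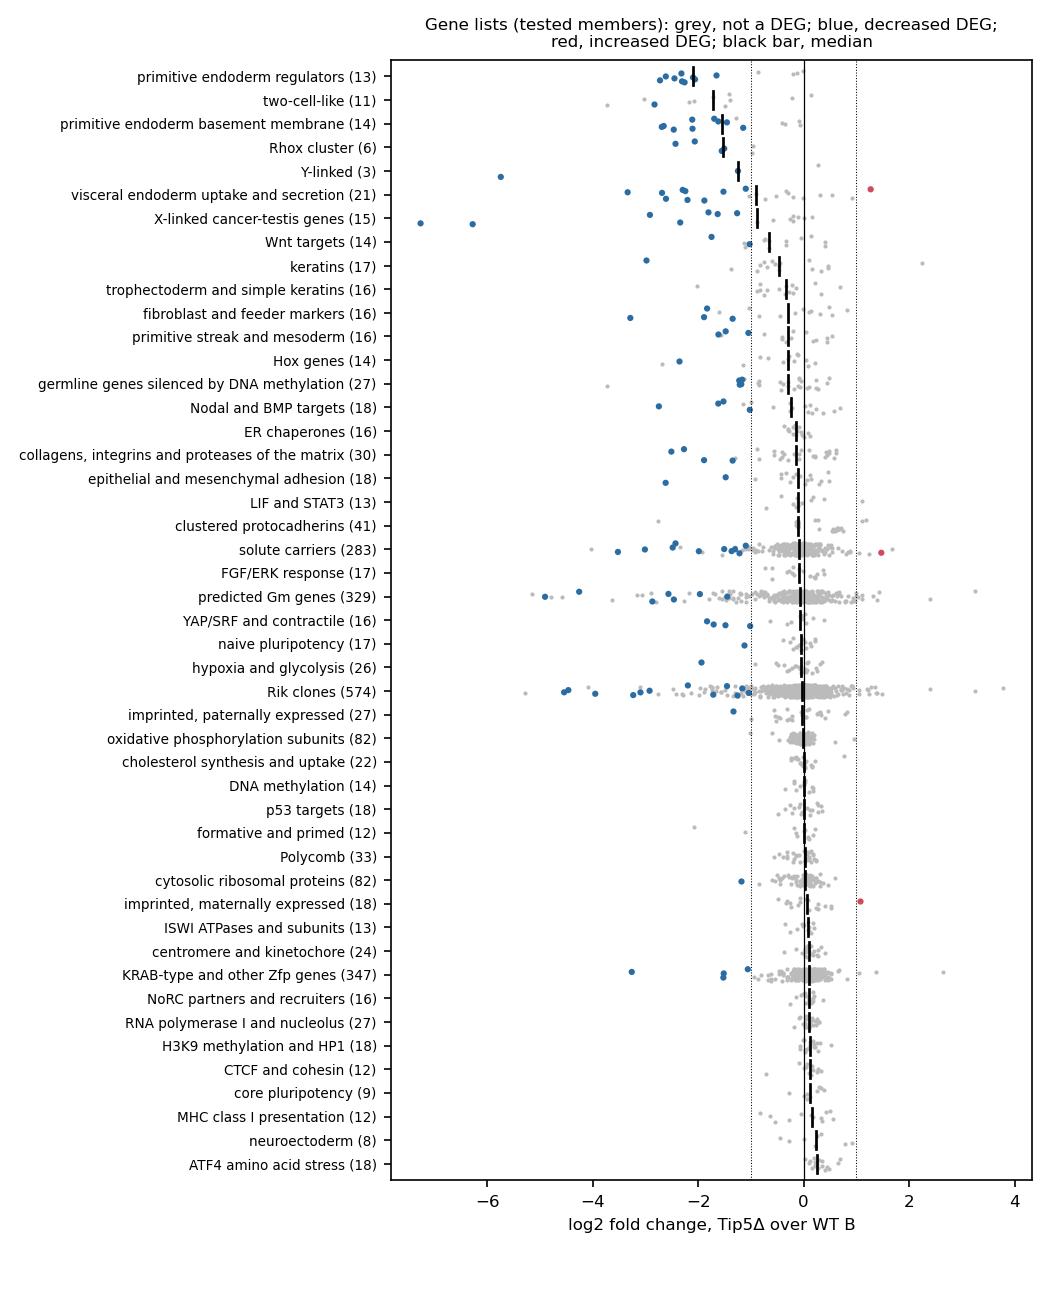
Log2 fold change of Tip5Δ over WT of batch B for the tested members of each gene list (number in parentheses), ordered by the list median (black bar); blue points are decreased DEGs, red points increased DEGs and grey points other genes. The primitive endoderm, two-cell-like, Rhox, Y-linked and X-linked cancer-testis lists have medians to the left, and most others centre near 0, as do all genes tested (-0.0050).

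Decreased genes were sometimes neighbours. Of the 413, 82 lay in 39 runs of adjacent tested genes that were all decreased DEGs, and the longest run had 3 genes. How many runs 2.63% decreased genes would give without clustering was not computed, so the count does not show clustering. Adjacent means next among tested genes: Esx1 and Nrk, for example, lay 1792100 bases apart, while some pairs overlapped. The runs named here were chosen after their values were seen. On chromosome 5, Pdgfra, Kit and Kdr, which encode related receptor tyrosine kinases and lie side by side, had log2 fold changes of -2.32, -1.04 and -1.61. Kit, the receptor for stem cell factor, was at 78.1 and 71.2 CPM in WT and 35.6 and 37.3 CPM in Tip5Δ (2.05-fold lower, edgeR adjusted p = 7.14e-12). Of these receptors Kit alone also differed from every other line. Other pairs were Uty and Ddx3y, and Gata6 with the antisense Gata6os. The last pair overlaps only at the gene ends, so that few of their reads depend on strand.

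Whether a change was particular to Tip5Δ was tested by the difference between its fold change and that of each of the 5 other lines, each against WT cells of its own batch. An adjusted p under 0.01 in all 5 differences, each with the sign of the Tip5Δ change, was reached by 24 DEGs, 0.153% of genes tested. Of these, 20 were decreased and 4 increased in Tip5Δ. With an adjusted p under 0.05 there were 40. Fmr1nb had a log2 fold change of -6.27 in Tip5Δ and between -4.10 (Acf1Δ) and -0.07 (the Cecr2Δ label) in the other lines. Zfp951 was at -3.26 in Tip5Δ and between -1.55 and 0.87 elsewhere, and C330024D21Rik at -3.95 against -1.39 to 0.17. Epas1, the hypoxia-inducible factor HIF-2α, was at 94.96 and 99.1 CPM in WT and 38.6 and 38.8 CPM in Tip5Δ, a log2 fold change of -1.33 against -0.28 to 0.48 in the other lines. Morc1, a germline silencing factor of transposons, fell from 70.7 and 65.6 CPM to 18.1 and 19.14 CPM (-1.87 against -1.28 to 0.22). P4ha1, a collagen hydroxylase, fell from 154 and 154 CPM to 40.5 and 39.6 CPM (-1.94 against -1.57 to 0.27), though it was no DEG without the batch term (edgeR adjusted p = 0.0429). The increases of Colec12, F5 and Gna14 were in this set: F5 was at 1.27 in Tip5Δ and between -1.64 and -0.63 in the others, and Gna14 at 1.23 against -2.04 to 0.35.

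The endoderm, Rhox and Y-linked decreases were mostly not of this kind. Of the 9 decreased regulators and the 9 decreased basement membrane genes, 0 differed from all 5 lines in the same direction, and of the 9 visceral genes 1 did, Tfpi. Of the 4 decreased Rhox genes and the 2 decreased Y-linked genes 0 did. Among the 7 decreased X-linked cancer-testis genes 1 did, Fmr1nb, and among the 4 decreased germline genes 1 did, Rpl10l. Against Acf1Δ, all 9 regulators and all 9 basement membrane genes were lower in Tip5Δ, whereas against BptfΔ 1 regulator was lower in Tip5Δ and 5 were higher. Of the basement membrane genes, 3 were lower and 2 higher than in BptfΔ. Against Rsf1Δ, WstfΔ and the Cecr2Δ label, 5, 6 and 1 regulators and 5, 3 and 6 basement membrane genes were lower in Tip5Δ, and 0 were higher. The median log2 fold change of the 9 regulators was -2.31 in Tip5Δ, -1.32 in Rsf1Δ, -1.49 in WstfΔ, -1.81 under the Cecr2Δ label, -3.63 in BptfΔ and 0.25 in Acf1Δ. For the 4 Rhox genes it was -1.81 in Tip5Δ, -1.7 in Rsf1Δ, -2.1 in WstfΔ, -1.79 under the Cecr2Δ label, -2.97 in BptfΔ and -1.68 in Acf1Δ. Ddx3y was at -5.74 in Tip5Δ, -10.5 in Rsf1Δ, -10.1 under the Cecr2Δ label and -10.5 in BptfΔ, but -0.28 in WstfΔ and 0.31 in Acf1Δ. Over all 413 decreased DEGs, the fold change was not called different for 289 against Rsf1Δ, 247 against WstfΔ, 249 against the Cecr2Δ label, 224 against BptfΔ and 150 against Acf1Δ, which does not show that the lines act alike.

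**Figure D5:**
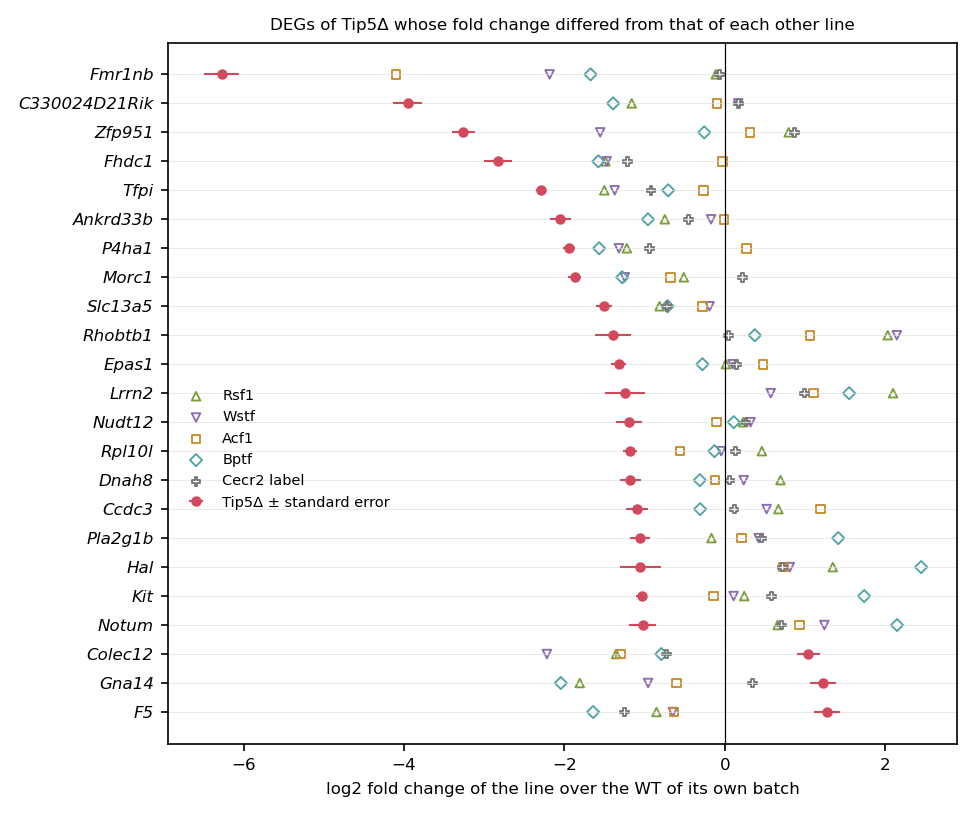
Log2 fold change over the WT cells of the same batch (horizontal axis) for DEGs of Tip5Δ that differed from each other line (20 decreased, 3 of 4 increased); red points with bars are Tip5Δ with its standard error, and open symbols are the other 5 lines. For the 20 decreased genes the red point is left of every open symbol, and for the 3 increased genes it is right of all of them.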

How the data were processed

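RNA was sequenced from poly(A)-selected libraries of mESCs. Reads had been aligned by the authors with QuasR against mm10, and they deposited raw counts per gene of the UCSC knownGene annotation; the labels also name HISAT2 and bcl2fastq (version 2.17). Whether counting used strand is not stated. Per the file headers, the width column deposited beside the counts holds gene lengths; the counts themselves are not normalised. Symbols and coordinates come from RefSeq (GRCm38.p6), in which 24570 of 24594 gene IDs matched.

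Counts were analysed in edgeR (4.0.16, R 4.3.3) with TMM normalisation, a low-count filter per genotype (filterByExpr), and a quasi-likelihood model of batch and genotype over all 24 libraries, which share 1 estimate of the spread. The coefficient compares Tip5Δ with WT of batch B. A DEG passed 1 on the absolute log2 scale at a Benjamini-Hochberg adjusted p under 0.01. Differences between lines were contrasts of the same fit. CPM use TMM library sizes, and fold changes are those of the fit. Libraries that share a number did not deviate together (correlation -0.0070), so the model has no replicate block.

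The script was checked on simulated counts. Genes named were Baz2a, all increased DEGs, the 20 decreased DEGs with the lowest fold changes and the 10 with the highest WT level (WT mean of at least 10 counts, groups not overlapping), up to 15 DEGs that differed from every other line, and list members that were DEGs or among the 4 most abundant; the text gives those that its account turns on, and names others only as stated. Members and lists were chosen with earlier results of these data known. Alternatives were another normalisation, filter, test (DESeq2 1.42.0, or a test against a 2-fold change), threshold or set of libraries, a replicate block, and no batch term. Some items within these lists are not reported here. Gene levels were not compared per length.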

Additional observations from a re-analysis of the deposited data

Results flagged for a closer look

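The fold changes of 24 DEGs differed between Tip5Δ and each of the 5 other lines (edgeR contrasts, adjusted p under 0.01 in each, same sign), which flagged the set and its members of largest fold change. Decreased in Tip5Δ were Fmr1nb (log2 fold change -6.27), C330024D21Rik (-3.95), Zfp951 (-3.26), Fhdc1 (-2.83), Tfpi (-2.29), Ankrd33b (-2.05), P4ha1 (-1.94), Morc1 (-1.87), Slc13a5 (-1.5), Rhobtb1 (-1.39), Epas1 (-1.33) and Lrrn2 (-1.24). Increased were F5 (1.27) and Gna14 (1.23). Rhobtb1 and Lrrn2 differed in sign from other lines as well: Rhobtb1 was between 0.05 and 2.14 and Lrrn2 between 0.57 and 2.10 in those. Lrrn2 was no longer a DEG of Tip5Δ without Tip5Δ library 2. Without the batch term, Fhdc1 (log2 fold change -2.08, edgeR adjusted p = 0.0155), Ankrd33b (-1.37, adjusted p = 0.0126), P4ha1 (-1.38, adjusted p = 0.0429) and F5 (0.76, adjusted p = 0.065) were no longer DEGs. Each line is 1 clone, so clone and deletion cannot be told apart in these differences.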

How the results depend on the processing

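Decreased DEGs numbered 413 in the main model, 144 without the batch term, 158 with a test against a 2-fold change and 977 without a fold-change minimum. Without the batch term, 106 of the 426 DEGs of both directions were called again. They ranged from 326 to 350 when 1 library was left out, and from 373 (replicate block) to 483 (batch B alone) under the other settings. Increased DEGs numbered 13 in the main model, 23 without the low-count filter, 26 with batch B alone and 446 without a fold-change minimum. There were 0 with edgeR's test against a 2-fold change, in which 20 had an unadjusted p under 0.05. DESeq2 called 13. They ranged from 8 (without Tip5Δ library 2) to 13 with 1 library left out. The number of DEGs that differed from every line went from 24 to 40 at an adjusted p under 0.05. The log2 fold change of Baz2a was past the p threshold without the filter (-0.24, adjusted p = 0.00234) and with batch B alone (-0.27, adjusted p = 1.04e-10), and was -0.04 without the batch term (adjusted p = 0.945). Sned1 reversed without the batch term (-0.24, adjusted p = 0.829), which sets it against WT libraries of other batches. Of 133 named genes, 132 kept their direction throughout, but 86 lost their call without the batch term, 70 with the test against a 2-fold change and 20 to 35 with 1 library left out. Blocking on the replicate number, which did not pair the libraries, gave 373 decreased and 12 increased DEGs. The causes were not tested. The fit rests on 2 libraries a group, and genes at a few counts had the least certain fold changes.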
